A study of Mus musculus with 24 samples.

Results

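The transcripts of 9 cytokines were followed through the regulatory T (Treg) cell libraries of this study: *Ifng*, *Tnf*, *Il17a*, *Il4*, *Il21*, *Csf2*, *Il6*, *Il1b* and *Il18*. They were chosen by name, by a rule that uses no values, although the choice was made with earlier results of these data known. They are 9 of the 17464 genes that the expression table lists, each found by its Ensembl identifier. Resting (rTreg, CD62L+ CD44-), activated (aTreg) and KLRG1+ (kTreg) cells came from the spleens of 4 young (2-month-old) and 4 old (26-month-old) mice, all wild type on the C57BL/6JRccHsd background, with no treatment named in the labels. This gave 24 libraries in 6 groups of 4, and since the 3 subsets of an age were sorted from the same 4 mice and share the numbers 1 to 4, libraries with the same number were read as coming from 1 mouse. The subsets were sorted by flow cytometry on surface proteins. The values are reads per gene divided by 1 size factor per library, called normalized values here, and 1 read was worth between 0.694 and 1.32 of them.

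Cytokines are secreted proteins that carry signals between immune cells. Helper T cells are classed by those they make: IFNγ marks type 1, IL-4 type 2, IL-17A type 17 and IL-21 follicular helper cells, while TNF and GM-CSF (encoded by *Csf2*) come from several kinds of activated T cell. FOXP3 is known to hold many of these genes down in Treg cells. IL-6, IL-1β and IL-18 are better known as products of myeloid, mast or epithelial cells that act on T cells, and IL-1β and IL-18 are made as precursors that inflammasome proteases cut. In bulk libraries of sorted cells, fewer cells that make a transcript and less of it per cell cannot be told apart.

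The bases just before the start of a gene show which of the known cytokine motifs lie close to it. They are printed for *Il6* and *Il4*, which differed most between old and young rTreg cells, and for *Il21* and *Il18*, which set kTreg cells apart from another subset. Each run holds the 150 bases before the gene start of GENCODE M39 on GRCm39, 5′ to 3′ along the gene. The capitals mark matches to the motifs named after them.
Il6: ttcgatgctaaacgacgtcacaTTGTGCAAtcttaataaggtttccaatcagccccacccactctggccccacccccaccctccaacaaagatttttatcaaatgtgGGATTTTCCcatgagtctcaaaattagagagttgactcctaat
Il4: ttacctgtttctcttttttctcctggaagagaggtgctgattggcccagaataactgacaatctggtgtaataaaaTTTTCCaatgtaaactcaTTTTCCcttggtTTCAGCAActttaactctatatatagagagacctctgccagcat
Il21: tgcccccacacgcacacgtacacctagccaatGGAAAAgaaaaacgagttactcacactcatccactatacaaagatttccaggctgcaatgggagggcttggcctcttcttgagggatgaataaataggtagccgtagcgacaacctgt
Il18: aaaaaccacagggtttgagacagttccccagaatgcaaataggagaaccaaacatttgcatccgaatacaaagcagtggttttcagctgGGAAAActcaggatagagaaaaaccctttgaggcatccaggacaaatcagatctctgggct

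The run of *Il6* is chr5:30217962-30218111 on the plus strand, that of *Il4* chr11:53509497-53509646 on the minus strand, that of *Il21* chr3:37286786-37286935 on the minus strand and that of *Il18* chr9:50465931-50466080 on the plus strand. The motifs were searched on both strands, from 250 bases before to 50 bases after each gene start, in 17352 listed genes. In the window of *Il6* lay a kappaB motif (GGANTTTCC) that begins 43 bases before the start and overlaps an NFAT motif (GGAAAA), a C/EBP motif (TTGCNNAA) that begins 128 bases before it and an AP-1 motif (TGANTCA) that begins 249 bases before it and so lies outside the printed run. A kappaB motif was present in 1.3% of all windows, the NFAT letters in 24.6%, the C/EBP letters in 10.4% and the AP-1 letters in 6.3%. The window of *Il4* held the NFAT letters at 4 places, of which 2 lie in the printed run, and a C/EBP motif, and had no TATAAA. The windows of *Il21* and *Il18* held NFAT letters only, at 2 places and 1 place. TATAAA, present in 11.2% of windows, began 29 to 31 bases before the start of *Ifng*, *Il17a*, *Tnf* and *Il1b*. A match is a stretch of letters and was not tested for binding. On GRCm39 the genes lie at chr10:118276951-118281797 (*Ifng*, plus strand), chr17:35418357-35420983 (*Tnf*, minus), chr1:20801129-20804720 (*Il17a*, plus), chr11:53493809-53509496 (*Il4*, minus), chr3:37276908-37286785 (*Il21*, minus), chr11:54138097-54140493 (*Csf2*, minus), chr5:30218112-30224979 (*Il6*, plus), chr2:129206490-129213059 (*Il1b*, minus) and chr9:50466081-50493633 (*Il18*, plus).

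Some libraries stood apart, and their values bear on results below. The reads on listed genes lay between 15045747 and 29521942 per library. *Foxp3*, the defining transcription factor of Treg cells, had medians between 17635 and 34603 normalized units in the 6 groups, and the old aTreg library of replicate 2 was lowest with 5079. In old mice the 6 Treg cell markers summed to 48154 to 60222 in rTreg, 24957 to 57399 in aTreg and 82256 to 95220 in kTreg cells. In young mice the sums were 55775 to 64957 in rTreg, 66269 to 67765 in aTreg and 94871 to 99742 in kTreg cells. The part of cells with little *Foxp3* in the cytokine results was not tested. *Klrg1* lay at 16559 or above in all 8 kTreg libraries and at 357 or below in the others. The young kTreg library of replicate 4 listed 4913 genes at 0, against 2756 or fewer in the other libraries. The 8 markers of basophils and mast cells summed to between 5552 and 15197 in old rTreg cells and to 769 or below in each of the other 20 libraries. The 10 markers of monocytes and macrophages summed to between 10262 and 26819 in old rTreg cells, to between 2186 and 3689 in old kTreg cells and to 417 or below in old aTreg cells. All 3 libraries of young mouse 2 were high in the 6 B cell markers (7921 to 16712, against 589 to 2065 in the other 21 libraries), and in the monocyte markers they summed to 9201 in rTreg, 3246 in aTreg and 33553 in kTreg cells, against 94.4 to 1384 in the other young libraries.

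All 9 transcripts passed the filter for testing, 10 or more normalized units in 4 or more libraries, but their depth differed widely. *Tnf* had 27317 reads over the 24 libraries and was above 0 in each of them, whereas *Il17a* had 363 reads and was above 0 in 11 libraries. *Il6*, *Il17a* and *Il1b* reached 10 normalized units in 8 libraries each. For *Il6* these were the 4 old rTreg and 4 old kTreg libraries. It thus passed the filter only through the groups in which it was high, the same groups that its calls below compare with others. Per kb of exon, *Tnf* was the most abundant in every library, with group medians of levels from 421 in old rTreg to 960.1 in young aTreg cells. *Ifng* came next by group median in 4 groups, with 23.5 per kb in young rTreg, 241 in young aTreg, 174 in old kTreg and 321 in old aTreg cells. In young kTreg cells *Il18* took the second place with 86.7 per kb, against 81.3 for *Ifng*. In old rTreg cells *Il6* took the second place by median, 127 against 112 per kb for *Ifng*, and the levels of these overlapped between libraries.

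**Figure D1:**
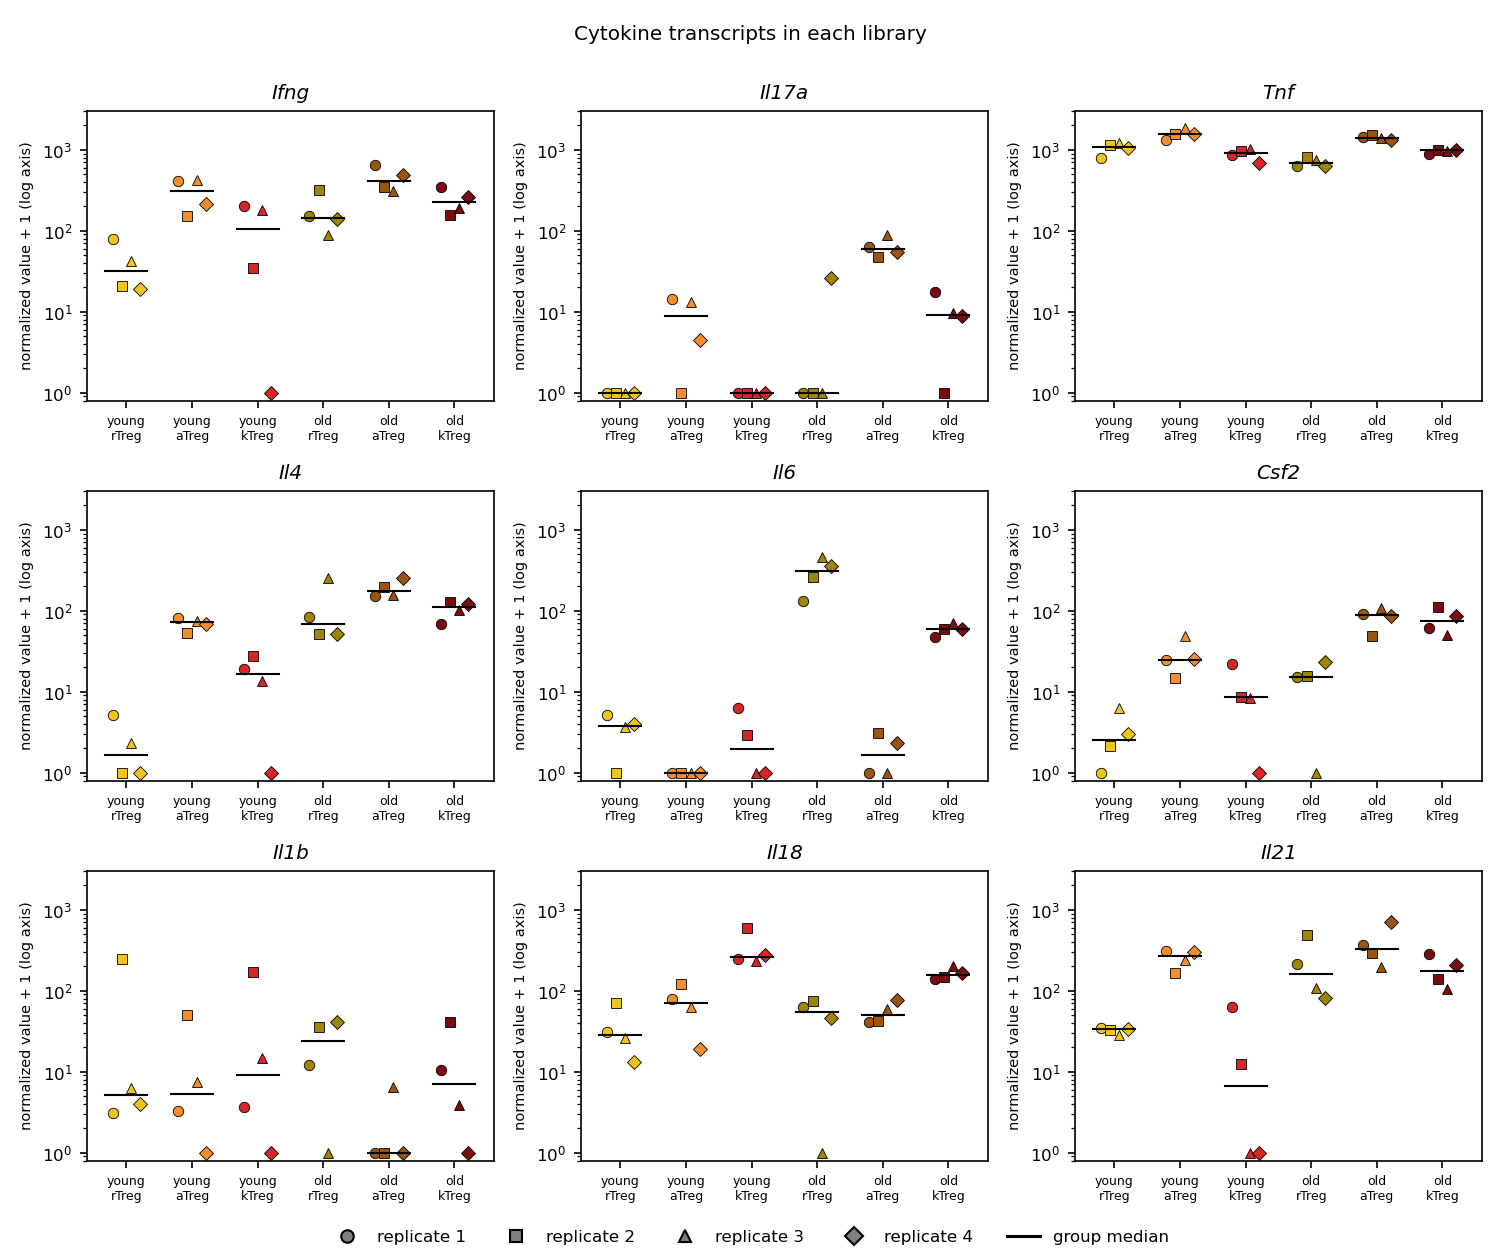
Normalized value + 1 (log axis) of each of the 9 cytokine transcripts in each of the 24 libraries, by group on the x axis, with 1 symbol shape per replicate number and a line at the group median. *Il6* lies between 131 and 454 in old rTreg cells and between 46.1 and 70.4 in old kTreg cells, and the highest value elsewhere is 5.23.

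**Figure D2:**
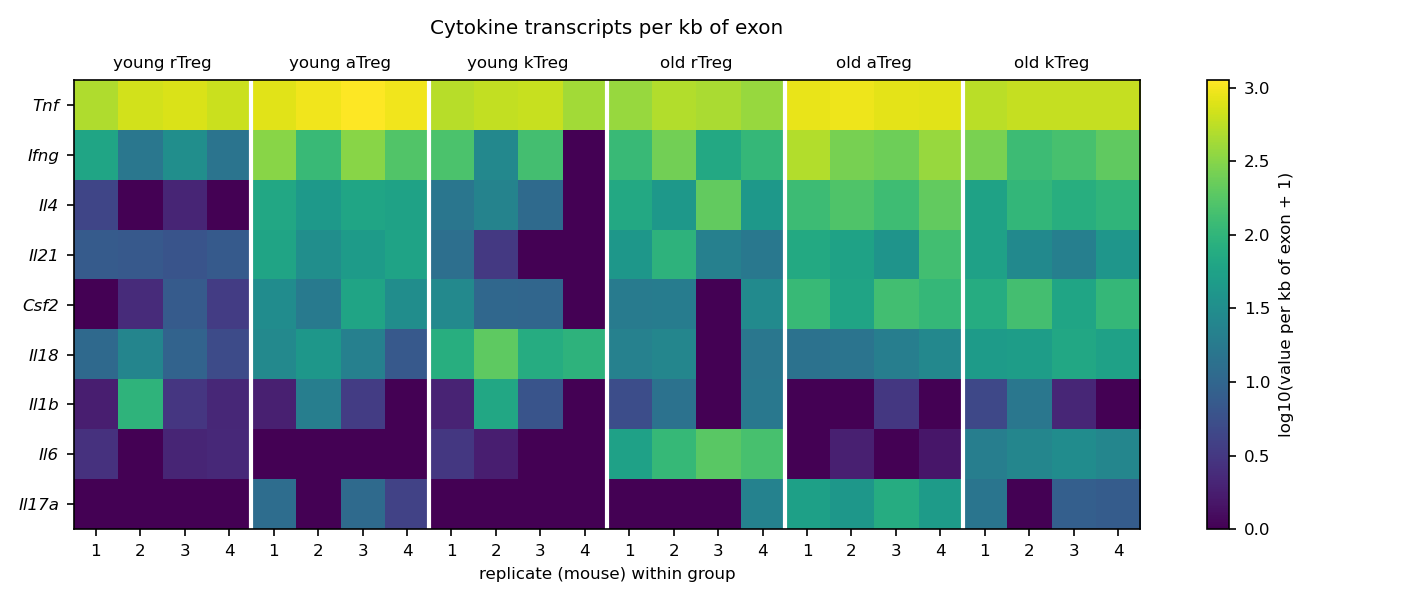
Level of the 9 transcripts per kb of exon, as log10(value per kb + 1) in color, with the 24 libraries in columns by group and replicate and the genes ordered by their median. *Tnf* is the highest in each column, and *Il6* stands out in the old rTreg and old kTreg columns.

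*Ifng* encodes IFNγ, the type 1 cytokine that activates macrophages. Its values in replicates 1 to 4 were 79.1, 19.9, 40.9 and 18.1 in young rTreg, 410.0, 152, 421 and 213 in young aTreg and 200.1, 33.5, 177 and 0 in young kTreg cells. In old mice they were 150.2, 321, 88.1 and 139 in rTreg, 652, 347, 308 and 484 in aTreg and 351, 158, 188 and 263 in kTreg cells. The medians ran in the order old aTreg, young aTreg, old kTreg, old rTreg, young kTreg and young rTreg, and each group overlapped its neighbour in that order. *Ifng* was lower in kTreg than in aTreg cells of the same mouse in all 8 mice, 4 of 4 at each age. By limma none of the 12 comparisons of *Ifng* was called, 4 passed an unadjusted p of 0.05, DESeq2 called 2 and edgeR none. The log2 fold change of kTreg against aTreg cells was −3.04 (SE 1.04, adjusted p = 0.0761, limma) in young mice and −0.91 (SE 1.04, adjusted p = 0.784, limma) in old mice. The young value rests on replicate 4 of kTreg cells, which was at 0 for *Ifng*: without it the log2 fold change was −1.36 (adjusted p = 0.169, limma), and without replicate 1 (−3.91, adjusted p = 0.0242, limma) or replicate 3 (−3.85, adjusted p = 0.0294, limma) it was called. Without replicate 4 *Ifng* was also called higher in young aTreg than in young rTreg cells (log2 fold change 3.01, adjusted p = 9.5e-04, limma), a comparison that does not contain that library but shares its estimate of spread, and in old than in young rTreg cells (log2 fold change 2.21, adjusted p = 0.0091, limma). The 6 markers of NK cells, which also make IFNγ, summed to between 271 and 577 in young rTreg and 765 and 1064 in young aTreg cells. In old rTreg cells they summed to between 1159 and 3286, so they moved with *Ifng* in both comparisons. Between old aTreg and old rTreg cells they did not: the median sums were 1809 and 2864, and the *Ifng* medians 416 and 145. The NK cell list holds *Eomes*, which is also on the list of transcription factors below, and the part of NK cells was not tested.

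*Tnf* encodes TNF, a cytokine of activated T cells and macrophages. It had the smallest SE of the 9 transcripts, and its values were 792, 1147, 1229 and 1041 in young rTreg, 1328, 1588, 1836 and 1559 in young aTreg and 864, 972, 1029.9 and 688 in young kTreg cells. In old mice the values were 628, 812, 751 and 624 in rTreg, 1440.1, 1533, 1384 and 1336 in aTreg and 881, 982, 978 and 1003 in kTreg cells. The 8 aTreg libraries lay above all 16 others. *Tnf* was lower in young kTreg than in young aTreg cells (log2 fold change −0.84, SE 0.15, adjusted p = 9.4e-04, limma) and higher in aTreg than in rTreg cells of young (0.59, SE 0.15, adjusted p = 0.0231, limma) and old mice (1.02, SE 0.15, adjusted p = 1.1e-04, limma). In old mice kTreg against aTreg cells gave −0.57 (adjusted p = 0.0433, limma), which is under the fold threshold of 1.5. The young aTreg against rTreg call lay close to that threshold and was lost in 6 of the 25 fits that left out libraries, among them the 1 without all libraries of young mouse 2 (log2 fold change 0.64, adjusted p = 0.0703, limma).

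*Il17a* encodes IL-17A, which recruits neutrophils. It was listed at 0 in all 4 young rTreg and all 4 young kTreg libraries. The values were 13.4, 0, 12.1 and 3.46 in young aTreg cells, 0, 0, 0 and 25.2 in old rTreg cells, 62.7, 46.5, 88.9 and 53.4 in old aTreg cells and 16.8, 0, 8.57 and 7.88 in old kTreg cells. The old aTreg libraries lay above all others, with 268 of the 363 reads. Against the floor of 3 reads over a group, *Il17a* was at least 79-fold higher in old aTreg cells than in young rTreg cells and at least 83.9-fold higher than in young kTreg cells. Against old rTreg cells the log2 fold change was 4.78 (SE 0.99, adjusted p = 0.00344, limma). DESeq2 (adjusted p = 0.255) and edgeR (adjusted p = 0.221), run on the recovered reads, did not call this difference. The 3 listed markers of gamma delta T cells, another source of IL-17A, summed to between 66.1 and 194 in old aTreg cells and to between 126 and 545 in old rTreg cells, while *Trgv2*, a variable gene of the gamma delta receptor that is not on that list, was the second gene in likeness to *Il17a* (r = 0.85 over 24 libraries). The part of gamma delta T cells in the *Il17a* result was not tested. Without the old rTreg library of replicate 4, the only one of its group above 0, the log2 fold change was 5.95 (adjusted p = 2.2e-04, limma). Between old and young aTreg cells the log2 fold change was 3.53 (SE 0.99, adjusted p = 0.056, limma), with no overlap of the groups.

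*Il4* encodes IL-4, the type 2 cytokine that drives IgE and is also made by basophils and mast cells. The values were 4.11, 0, 1.32 and 0 in young rTreg, 81.3, 51.6, 73.9 and 68.4 in young aTreg and 18.3, 26.8, 12.6 and 0 in young kTreg cells. The old libraries had 83.1, 51.0, 250.5 and 50.3 in rTreg, 151, 196, 153 and 252 in aTreg and 68.1, 128, 99.96 and 119 in kTreg cells. In each subset the 4 old libraries lay above the 4 young ones, and the difference in aTreg cells was not called (log2 fold change 1.43, SE 0.78, adjusted p = 0.496, limma). *Il4* rose between young and old rTreg cells (log2 fold change 5.55, SE 0.78, adjusted p = 1.1e-04, limma) and between young and old kTreg cells (3.47, SE 0.78, adjusted p = 0.0242, limma). Young rTreg cells held 5 reads in all, so that the ratio of old to young rTreg cells was 86.1, with an exact 95% interval of 36.7 to 266 that covers counting error only. Among the subsets of young mice, *Il4* was higher in aTreg than in rTreg cells (5.21, SE 0.78, adjusted p = 2.8e-04, limma), lower in kTreg than in aTreg cells (−2.90, SE 0.78, adjusted p = 0.0223, limma) and higher in kTreg than in rTreg cells (2.32, SE 0.78, adjusted p = 0.0398, limma). The last of these was not called without the libraries of young mouse 2 (log2 fold change 1.49, adjusted p = 0.253, limma). That call was also lost without young kTreg replicate 1, 2 or 3 or young rTreg replicate 2, 3 or 4. A pseudocount of 5 and a fit of only the groups compared lost it as well. In a fit of only the groups compared, neither young kTreg against aTreg cells (adjusted p = 0.184, limma) nor old against young kTreg cells (adjusted p = 0.241, limma) was called, and edgeR called neither. Without the young kTreg library of replicate 4, which was at 0, these differences were −1.83 (adjusted p = 0.0455, limma) and 2.40 (adjusted p = 0.036, limma), and young kTreg against rTreg cells gave 3.38. The change with age in kTreg cells was also lost without any 1 of the 4 old kTreg libraries (adjusted p between 0.0541 and 0.0849, limma), and young kTreg against aTreg cells without young aTreg replicate 1 (adjusted p = 0.0583, limma) or 3 (adjusted p = 0.0579, limma).

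*Il21* encodes IL-21, the follicular helper cytokine that acts on B cells. The values were 33.9, 32.1, 27.7 and 33.1 in young rTreg, 313, 163, 240.3 and 302 in young aTreg and 62.8, 11.5, 0 and 0 in young kTreg cells. In old mice they were 213, 484, 107 and 81.6 in rTreg, 366, 294, 196 and 705 in aTreg and 286, 141, 105 and 206 in kTreg cells. Young kTreg cells lay below young aTreg cells without overlap (log2 fold change −5.54, SE 0.90, adjusted p = 4.8e-04, limma), and all 4 old kTreg libraries lay above all 4 young ones (log2 fold change 5.02, SE 0.90, adjusted p = 0.00501, limma). Young kTreg cells held 60 reads of *Il21*, 48 of them in replicate 1. The ratio of summed reads was 16 for young aTreg against young kTreg cells (95% interval 12.4 to 21.1, counting error only) and 11.5 for old against young kTreg cells (8.86 to 15.3). Without young kTreg replicate 3 or 4, each at 0, the log2 fold changes were −4.74 and 4.22, and without replicate 1 they were −6.74 and 6.22. Both differences were called in each of the 25 fits that left out libraries, but not in a fit of only the groups compared (adjusted p = 0.0551 and 0.188, limma), and edgeR did not call the change with age (adjusted p = 0.0899). Young kTreg against young rTreg cells gave −2.62 (SE 0.90, adjusted p = 0.046, limma), a call that was made in 5 of those 25 fits and not by DESeq2 or edgeR. The groups overlapped, with means of 18.6 and 31.7, and replicate 1 was higher in kTreg cells. The log2 fold change was −1.82 without kTreg replicate 3 (adjusted p = 0.16, limma) or 4 (adjusted p = 0.136, limma) and −0.80 by DESeq2 (adjusted p = 0.544). The 6 follicular T cell markers summed to between 12276 and 14300 in young kTreg cells and to between 14010 and 15494 in young aTreg cells, and their part in the result was not tested.

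*Csf2* encodes GM-CSF, a growth factor of myeloid cells. The values were 0, 1.11, 5.27 and 2.01 in young rTreg, 23.4, 13.7, 47.4 and 24.3 in young aTreg and 20.9, 7.65, 7.33 and 0 in young kTreg cells. The old libraries had 14.0, 14.6, 0 and 22.1 in rTreg, 90.9, 47.5, 106 and 84.6 in aTreg and 60.8, 109.9, 48.6 and 85.3 in kTreg cells. Old aTreg and old kTreg cells overlapped, and their lowest values, 47.5 and 48.6, lay above all other libraries, of which the young aTreg library of replicate 3 was highest. *Csf2* was higher in aTreg than in rTreg cells at both ages (log2 fold change 3.36 in young mice, adjusted p = 0.0352, and 3.22 in old mice, adjusted p = 0.0248, limma, both SE 0.90) and higher in old kTreg than in old rTreg cells (3.10, SE 0.90, adjusted p = 0.0295, limma). The old against young difference in kTreg cells was 3.54 (SE 0.90, adjusted p = 0.0512, limma), with no overlap. Both old calls were lost without the old rTreg library of replicate 3, which was at 0: aTreg against rTreg cells gave 2.19 (adjusted p = 0.0836, limma) and kTreg against rTreg cells 2.07 (adjusted p = 0.117, limma). The first was also lost without old aTreg replicate 1, 3 or 4, and the second without old kTreg replicate 1, 2 or 4. Neither was called in a fit of only the groups compared (adjusted p = 0.0801 and 0.0871, limma). EdgeR called none of the 3 differences between subsets (adjusted p between 0.0608 and 0.105), and that of young mice was lost without young mouse 2 (log2 fold change 3.54, adjusted p = 0.111, limma). The young difference was called in 17 of the 25 fits that left out libraries, and was lost without any 1 of the young aTreg libraries.

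*Il6* encodes IL-6, which induces acute phase proteins and turns naive T cells toward the type 17 lineage. Young cells held few reads of it: the values were 4.11, 0, 2.64 and 3.01 in rTreg, 0 in all 4 aTreg and 5.23, 1.91, 0 and 0 in kTreg libraries. In old mice they were 131, 263, 454 and 353 in rTreg, 0, 2.07, 0 and 1.3 in aTreg and 46.1, 58.6, 70.4 and 59.1 in kTreg cells. The 3 old groups did not overlap. *Il6* rose with age in rTreg (log2 fold change 6.54, SE 0.65, adjusted p = 1.8e-06, limma) and in kTreg cells (4.84, SE 0.65, adjusted p = 2.6e-04, limma). In old mice it was higher in kTreg than in aTreg cells (5.18, SE 0.65, adjusted p = 1.3e-04, limma), lower in kTreg than in rTreg cells (−2.22, SE 0.65, adjusted p = 0.0301, limma, and 0.0693 by edgeR) and lower in aTreg than in rTreg cells (−7.39, SE 0.65, adjusted p = 3.5e-07, limma). Old aTreg cells held 3 reads in all, so these fitted differences depend on the pseudocount, and the ratio of summed reads was 80.5 for old kTreg against old aTreg cells (95% interval 27.2 to 393, counting error only). Old kTreg against old aTreg and old against young rTreg and kTreg cells were called in every setting and every fit that left out libraries. The difference between old kTreg and old rTreg cells was called in 19 of the 25 fits that left out libraries. It was lost without any 1 of the old kTreg libraries, with a filter at 50 and with a pseudocount of 0.5.

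Markers of some other cells moved with *Il6* between some of the groups. In old rTreg cells all 8 basophil and mast cell markers were above 0 in each library, and *Mcpt8* and *Prss34*, proteases of basophils, reached 479 to 1984 and 620 to 3401, against at most 12.3 and 27.7 in young rTreg cells. *Il6* amounted to 23.6 to 40.3 per 1000 units of the summed basophil and mast cell markers in old rTreg cells and to 76.2 to 333 per 1000 in old kTreg cells, where all 8 markers were also above 0 and summed to between 138 and 769. In old aTreg cells the same markers summed to between 158 and 375 while *Il6* stayed at 2.07 or below. Against the summed monocyte and macrophage markers, *Il6* amounted to 7.45 to 34.2 per 1000 in old rTreg and 19.1 to 27.0 per 1000 in old kTreg cells. The young kTreg library of replicate 2 had the largest monocyte sum of all, 33553, and an *Il6* value of 1.91. Neutrophil markers summed to between 655 and 13528 in old rTreg cells. They summed to 3235 in the young rTreg library of replicate 2, where *Il6* was at 0. Plasma cell markers summed to between 6925 and 14043 in old rTreg cells. In young kTreg cells, where *Il6* was 5.23 or below, they summed to between 7720 and 8651. The plasma cell list holds *Prdm1*, and whether Treg cells themselves express genes of that list was not tested. The part of these other cell types in the *Il6* result was not tested.

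*Il4* shared the difference between old and young rTreg cells, and its ratio to the basophil and mast cell markers also varied between groups, as that of *Il6* did. *Il4* amounted to 5.10 to 16.5 per 1000 units of the basophil and mast cell sum in old rTreg cells and to 166 to 492 per 1000 in old kTreg cells. In young aTreg cells it amounted to 912 to 1549 per 1000, and the 8 markers summed to between 44.2 and 89.1. The part of basophils and mast cells in the *Il4* of old rTreg cells was not tested.

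**Figure D3:**
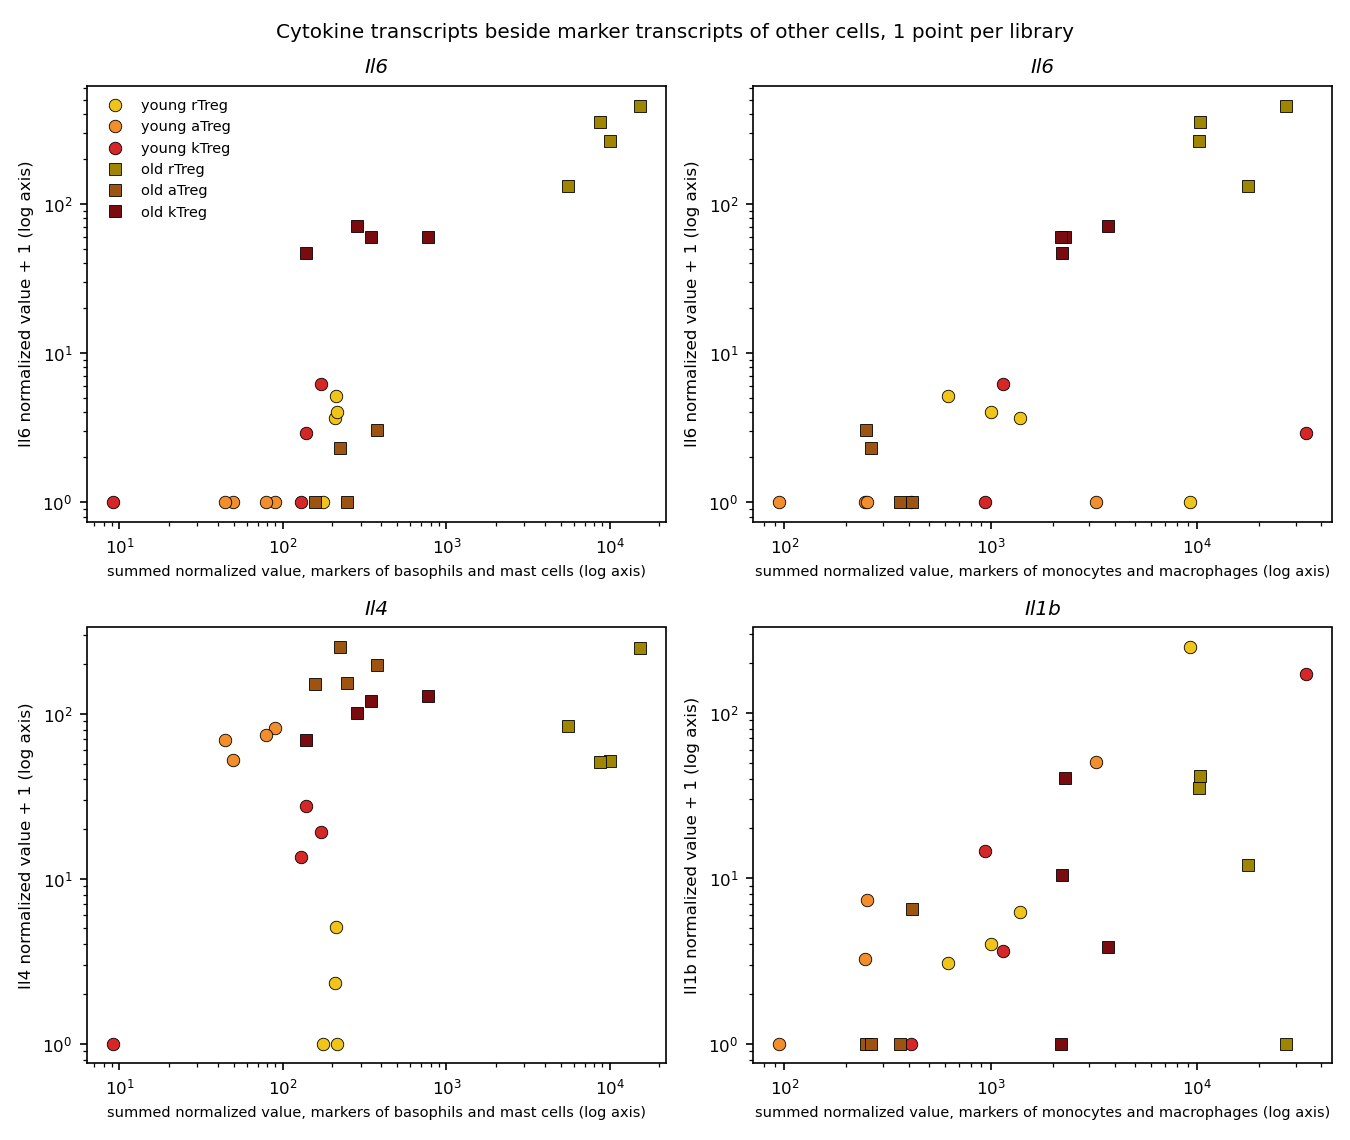
Normalized value + 1 of *Il6*, *Il4* and *Il1b* (y axis, log) against the summed normalized value of the markers of basophils and mast cells or of monocytes and macrophages (x axis, log), 1 point per library, circles for young and squares for old mice. The 4 old rTreg libraries lie alone at basophil sums of 5552 and above, with the highest *Il6* values, and *Il4* lies between 151 and 252 in old aTreg cells, whose sums are 375 or below.

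*Il1b* encodes IL-1β, which myeloid cells release after inflammasome activation. The values were 2.05, 248, 5.27 and 3.01 in young rTreg, 2.23, 49.2, 6.43 and 0 in young aTreg and 2.62, 171, 13.6 and 0 in young kTreg cells. The old libraries had 11.0, 34.3, 0 and 40.4 in rTreg, 0, 0, 5.51 and 0 in aTreg and 9.43, 39.6, 2.86 and 0 in kTreg cells. The highest value in each young group was that of mouse 2, whose monocyte, neutrophil and B cell marker sums were the highest of the young libraries. The old rTreg library of replicate 3 had a monocyte sum of 26819 and a neutrophil sum of 13528, with *Il1b* at 0. The part of those cells was not tested. By limma none of the 12 comparisons was called, none passed an unadjusted p of 0.05, and DESeq2 and edgeR called none. The SE of 1.65 between 2 groups was the largest of the 9 transcripts. All 6 groups overlapped with their neighbours in the order of medians.

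*Il18* encodes IL-18, which with IL-12 induces IFNγ in T and NK cells. It was the only one of the 9 with its 2 highest group medians in kTreg cells. The values were 29.8, 69.8, 25.0 and 12.0 in young rTreg, 78.0, 119, 61.9 and 18.2 in young aTreg and 243, 591, 233 and 278 in young kTreg cells. In old mice they were 62.1, 72.8, 0 and 45.7 in rTreg, 40.0, 41.3, 58.2 and 76.8 in aTreg and 139, 145, 201 and 165 in kTreg cells. Young kTreg libraries lay above old kTreg libraries, and these above the 16 others, without overlap. Against rTreg cells *Il18* was higher in kTreg cells of young (log2 fold change 3.41, SE 0.93, adjusted p = 0.0121, limma) and old mice (2.91, SE 0.93, adjusted p = 0.0489, limma). The first was called in every setting. The second was called in 6 of 25 fits that left out libraries and not by DESeq2 (adjusted p = 0.063) or edgeR (adjusted p = 0.157), and without the old rTreg library of replicate 3, which was at 0, the log2 fold change was 1.43 (adjusted p = 0.126, limma). Against aTreg cells the differences were 2.42 in young mice (adjusted p = 0.118, limma) and 1.61 at the older age (adjusted p = 0.419, limma), with higher values in kTreg cells in all 8 mice and no overlap at either age. Within young kTreg cells the summed monocyte and macrophage markers were 1140 in replicate 1, 33553 in replicate 2, 937 in replicate 3 and 412 in replicate 4, the last with 8 of 10 markers at 0 in the library that listed the most genes at 0. *Il18* was highest in replicate 2, and the part of these cells was not tested.

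**Figure D4:**
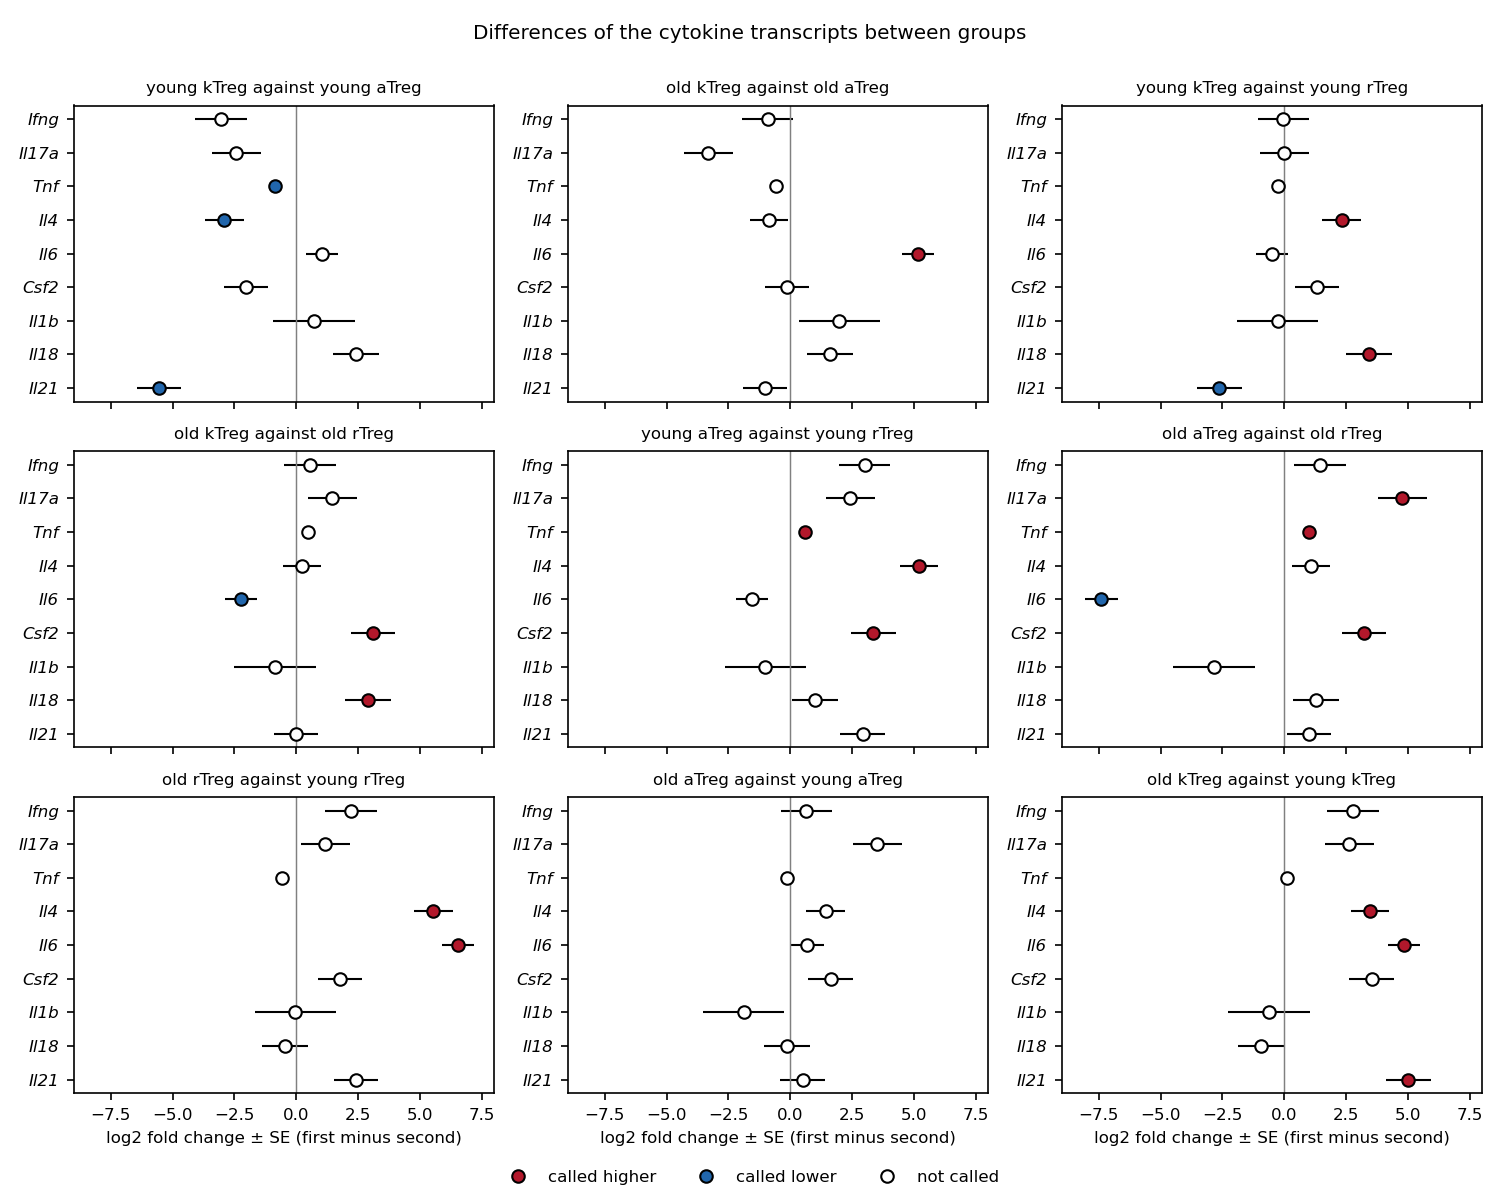
Log2 fold change of each transcript on the log2(value + 1) scale, with its SE (bars), in the 9 comparisons between groups of 4 libraries, from limma. Filled points passed an adjusted p of 0.05 and a fold of 1.5, red for higher and blue for lower in the first group. *Il6* has called differences on both sides of the zero line, from −7.39 to 6.54.

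The calls were counted by comparison and read against the share of all 16630 genes tested. Young kTreg against young aTreg cells gave 3 of 9 cytokine transcripts, *Tnf*, *Il4* and *Il21*, all lower in kTreg cells, where 6.95% of all genes were called. Old kTreg against old aTreg cells gave 1 of 9, *Il6*, where 2.2% of all genes were called. Young kTreg against young rTreg cells gave 3 of 9 (*Il18* and *Il4* higher, *Il21* lower) beside 15.8% of all genes, and old kTreg against old rTreg cells 3 of 9 (*Il18* and *Csf2* higher, *Il6* lower) beside 8.86%. In aTreg against rTreg cells 3 of 9 were called in young mice (*Tnf*, *Il4* and *Csf2*, all higher) beside 3.35% of all genes, and 4 of 9 in old mice (*Tnf*, *Il17a* and *Csf2* higher, *Il6* lower) beside 8.6%. The median log2 fold change of the 9 was −2.03 in young kTreg against aTreg cells and 2.43 in young aTreg against rTreg cells, and that of all genes −0.12 and 0.02. These comparisons share groups: the young aTreg libraries enter both.

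With age, 2 of 9 transcripts were called in rTreg cells (*Il4* and *Il6*, both higher in old mice) where 5.83% of all genes were called. In aTreg cells 0 of 9 were called beside 2.71% of all genes by limma, 1 (*Il17a*) passed an unadjusted p of 0.05 with the fold threshold, and DESeq2 and edgeR called 0. In kTreg cells 3 of 9 were called (*Il4*, *Il6* and *Il21*, all higher in old mice) beside 1.26% of all genes. The median log2 fold change of the 9 with age was 1.77 in rTreg, 0.65 in aTreg and 2.78 in kTreg cells, against −0.08, 0.01 and 0.12 for all genes. Whether subsets differed in their change with age was tested as an interaction. Of the 9 transcripts 1 was called for aTreg against rTreg cells, *Il6* (difference of log2 fold changes −5.84, SE 0.91, adjusted p = 0.0037, limma), beside 1.56% of all genes. With the mouse as a replicate block *Il4* was called as well in this interaction (−4.12, adjusted p = 0.0425, limma; adjusted p = 0.0596 without the block). DESeq2 (adjusted p = 0.0561) and edgeR (adjusted p = 0.947) did not call *Il6* here, DESeq2 called *Il4* (adjusted p = 0.00111), and young aTreg cells held 0 and old aTreg cells 3 of its reads. For kTreg against rTreg cells 0 of 9 were called beside 3.02% of all genes by limma, and 1 passed the unadjusted p (DESeq2 called 2, *Tnf* and *Il4*, and edgeR 0). Without the young kTreg library of replicate 4 *Il4* was called there (−3.15, adjusted p = 0.0188, limma). For kTreg against aTreg cells 0 of 9 were called beside 0.156% of all genes by limma, and 2 passed the unadjusted p (DESeq2 and edgeR called 0 each). The rise of *Il21* in old kTreg cells was thus not shown to differ from its change in the other subsets (4.52 against aTreg cells, adjusted p = 0.246, limma).

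The gene lists that follow are counted beside the shares of all genes called in either direction, which were 6.95% in young and 2.2% in old mice for kTreg against aTreg cells, 15.8% and 8.86% for kTreg against rTreg cells, 3.35% and 8.6% for aTreg against rTreg cells, and 5.83% in rTreg, 2.71% in aTreg and 1.26% in kTreg cells with age. Nothing is read from them about a list as a whole.

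The receptors of these cytokines were described from a list of 19 genes, all tested. The list also holds *Csf2rb2*, a chain of the receptor for IL-3, which is not among these cytokines. Between kTreg and aTreg cells 2 were higher and 1 lower in young mice, and 1 was higher and 2 lower in old mice. *Tnfrsf1b*, the second TNF receptor, was higher in kTreg cells at both ages (log2 fold change 1.23 in young mice, adjusted p = 0.0045, and 1.22 in old mice, adjusted p = 0.0157, limma), and *Il18rap*, a chain of the IL-18 receptor, in young mice (1.36, adjusted p = 0.00798, limma). The median of the list was 0.04 in young and −0.05 in old mice, against −0.12 and 0.01 over all genes. Against rTreg cells, 4 receptors were higher and 2 lower in young and 3 higher and 5 lower in old kTreg cells. *Il18rap* (3.46, adjusted p = 7.8e-08, limma) and *Il18r1* (1.93, adjusted p = 1.6e-04, limma) were higher in young kTreg cells, and *Il6ra*, the IL-6 receptor, was lower in old kTreg cells (−1.67, adjusted p = 2.2e-06, limma). In aTreg against rTreg cells 6 were higher and 1 lower in young mice and 5 higher and 7 lower in old mice. With age 7 were higher and 1 lower in rTreg, 3 higher and 3 lower in aTreg and 1 higher and 1 lower in kTreg cells. *Il6ra* fell with age by 1.46 in aTreg (adjusted p = 3.8e-05, limma) and by 1.21 on the log2 scale in kTreg cells (adjusted p = 4.8e-04, limma), and *Ifngr1*, an IFNγ receptor chain, rose by 0.88 (adjusted p = 0.0012, limma) and 0.79 (adjusted p = 0.00754, limma). *Csf2rb2*, an IL-3 receptor chain, lay between 163 and 436 in old rTreg cells and at 15.8 or below in all other libraries. The basophil and mast cell marker sums, 5552 or more in old rTreg and 769 or below in other libraries, moved with it and with the counts that involve old rTreg cells, and their part was not tested.

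Of 29 transcription factors known to act on these genes, all tested, 4 were higher and 3 lower in young kTreg than in young aTreg cells, and the 5 called in old mice were all higher in kTreg cells. *Gata3*, the factor of type 2 cells, was higher in kTreg cells at both ages (1.34 in young mice, adjusted p = 5.9e-06, and 0.98 in old mice, adjusted p = 8.2e-04, limma), while *Il4* was lower in young kTreg cells. *Rora* was higher (1.23, adjusted p = 5.5e-04, limma) and *Eomes*, a type 1 factor, lower (−4.52, adjusted p = 6.1e-04, limma) in young kTreg cells. Against rTreg cells 12 were higher and 2 lower in young kTreg cells, where 1371 of all genes were higher and 1258 lower, and 6 were higher in old ones, where the numbers were 960 and 514. The median of the list was 0.68 in young and 0.39 in old mice, against −0.14 and 0.10 over all genes. The calls were led by *Rora* (2.79, adjusted p = 5.0e-09, limma) and *Maf* (3.14, adjusted p = 1.2e-08, limma) in young mice. In aTreg against rTreg cells 7 were higher in young and 4 higher and 2 lower in old mice. With age 8 were higher in rTreg cells, among them *Tbx21*, the factor of type 1 cells (2.38, adjusted p = 2.0e-05, limma). In aTreg cells 2 were higher and 1 lower with age and in kTreg cells 2 were higher. *Bhlhe40*, a factor needed for GM-CSF in T cells, was higher in old than in young cells in aTreg (1.77, adjusted p = 0.0161, limma) and kTreg cells (1.88, adjusted p = 0.0214, limma).

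Of 16 genes of the inflammasome and of the processing of IL-1, IL-18 and TNF, all tested, 2 were higher in young kTreg than in young aTreg cells, *Casp1*, the protease that cuts both precursors (0.71, adjusted p = 0.0159, limma), and its adaptor *Pycard* (1.08, adjusted p = 0.00554, limma). Against rTreg cells, 5 were higher and 1 lower in young and 2 higher and 1 lower in old kTreg cells, and 3 were higher in young and 1 higher and 2 lower in old aTreg cells. All calls of the list between kTreg and aTreg cells came from young mice, where its median was −0.14, against −0.12 over all genes. With age 4 were higher in rTreg, 2 in aTreg and 1 in kTreg cells. *Casp1* was higher in old than in young cells of all 3 subsets, by 1.59 in rTreg (adjusted p = 1.0e-05, limma), 1.71 in aTreg (adjusted p = 1.2e-05, limma) and 0.93 in kTreg cells (adjusted p = 0.00959, limma). Its group medians ran from 831 in young rTreg to 4636 in old aTreg cells, the group in which *Il1b* was at 0 in 3 of 4 libraries. *Nlrp3*, an inflammasome sensor of myeloid cells, lay between 8.38 and 196 in old rTreg cells and was at 0 in all 4 old aTreg libraries. Of 15 genes for decay and translation of cytokine mRNA, all tested, 2 were higher in old kTreg than in old aTreg cells, *Zc3h12a*, the nuclease Regnase-1 that degrades *Il6* mRNA (0.99, adjusted p = 0.0203, limma), and *Zfp36*, which binds AU-rich elements (1.21, adjusted p = 0.0435, limma). The only other calls of this list were 1 higher and 1 lower in young and 1 higher in old kTreg against rTreg cells. Its median was −0.04 in young and 0.25 in old kTreg against aTreg cells, against −0.12 and 0.01 over all genes.

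Of 30 other T cell cytokine genes, 23 were in the table and tested, and *Il3*, *Il9*, *Il22*, *Il24*, *Il1a*, *Il27* and *Il33* were not analysed here. Between kTreg and aTreg cells 3 were higher and 6 lower in young and 4 higher and 4 lower in old mice, and the list's median was −0.38 at the young and 0.06 at the old age, against −0.12 and 0.01 over all genes. *Lta*, a relative of *Tnf* and its neighbour on chromosome 17, was lower in kTreg cells at both ages (−1.73 in young mice, adjusted p = 7.1e-06, and −1.15 in old mice, adjusted p = 0.00203, limma). *Penk*, which encodes proenkephalin, was higher (1.86 in young mice, adjusted p = 5.2e-04, and 1.58 in old mice, adjusted p = 0.00799, limma). Against rTreg cells 8 were higher and 3 lower in young and 6 higher and 3 lower in old kTreg cells, and *Il10*, the anti-inflammatory cytokine of Treg cells, rose by 5.52 in young kTreg (adjusted p = 2.3e-06, limma) and by 4.56 in young aTreg cells (adjusted p = 1.8e-04, limma). In aTreg against rTreg cells 6 were higher and 1 lower in young and 7 higher and 1 lower in old mice. With age 4 were higher and 1 lower in rTreg, 1 higher and 1 lower in aTreg and 2 higher in kTreg cells, the last being *Tnfsf8* (1.91, adjusted p = 0.00317, limma) and *Il5*, a type 2 cytokine whose gene lies on chromosome 11 with *Il4* and *Csf2* (3.96, adjusted p = 0.0392, limma).

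The genes whose pattern over the 24 libraries was most like that of each cytokine were ranked by Pearson r of log2(value + 1), as a description, since the libraries of a group share much else. For *Il6* these were *Pik3r6* (r = 0.94), *Gata2* (0.92), *Gm53692* (0.91), *Mcpt8* (0.90) and *Prss34* (0.90), 3 of which are on the list of basophil and mast cell markers. For *Il1b* the first was *Adgre1* (0.81), which encodes the macrophage protein F4/80, and *Hfe* (0.79), *Zfp266* (0.76) and *Slfn4* (0.76) were also among the nearest. The *Il18* pattern was nearest to *Hpse* (0.94), *Fam241b*, *Akap7* and *Zfp41* (0.90 each) and *Slc16a10* (0.89). *C2cd4b* (0.93), *Gm11454* (0.92), *Gpm6b* and *Dusp14* (0.91 each) were among the nearest to *Ifng*. *Il21* was nearest to *Serpina9* (0.93) and *Scart2* (0.92), then *Il17re* (0.85), *1700019D03Rik* and *Gm49180* (0.84 each). *Il4* was nearest to *Slc24a3* and *Krt17* (0.92 each), then *Gm5159*, *Enpp2* and *Susd3* (0.89 each), and *Csf2* to *Gm5491* (0.91), *Ptpn22* (0.89), *Scin* and *Chad* (0.88 each) and *Ccdc92* (0.87). *Il17a* was nearest to a gene with no symbol, ENSMUSG00000112481 (0.88), and to *Trgv2*, *Meox1* and *Ppp1r14c* (0.85 each) and *Slc27a6* (0.83), and *Tnf* to *Ptges3* and *Gm43920* (0.80 each), *Dclre1b* and *Cntn1* (0.79 each) and *Lingo4* (0.78). Among the 9 themselves, *Ifng* and *Il4* were most alike (r = 0.80 over 24 libraries), followed by *Ifng* with *Csf2* and with *Il21* (0.76 each), and *Tnf* and *Il6* were least alike (r = −0.69).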

How the data were processed

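Polyadenylated RNA of flow-sorted spleen Treg cells was sequenced after SMART-Seq v4 amplification. Per the submitters' processing notes, the authors used HISAT2 (2.2.1), GRCm39, SAMtools (1.13), HTSeq (1.99.2) and DESeq2 (1.44.0). The annotation release and strand setting are not given in the sources used here. The deposited signal values are gene counts divided by 1 size factor per library, from which whole reads were recovered for 100% of values within 0.001. No molecular identifiers were used, so intervals and floors cover counting error only. Total reads on listed genes were 15045747 to 29521942 per library, which limits the precision of low genes. All 9 members passed the filter, so no single-gene permutation test was needed.

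Log2(value + 1) was fitted with limma (3.58.1, R 4.3.3) over 6 groups of 4 libraries, for 16630 of 17464 genes that reached 10 in 4 or more libraries. Calls needed a fold above 1.5 and p below 0.05 after Benjamini-Hochberg adjustment over all genes tested. Fold changes are differences of mean log2(value + 1): the pseudocount shrinks those of low genes, and a single library at 0 can make them larger than the ratio of group means. EdgeR (4.0.16) and DESeq2 (1.42.0) were run on recovered reads as alternatives, beside other pseudocounts, filters, scalings, thresholds and contrasts, 24 fits leaving out 1 library each and, chosen after seeing the data, 1 without young mouse 2. The script was tested on simulated data, where it missed the share of changed genes first asked for, and that bar was lowered after the fact, so a difference that was not called may have been missed. Per the series' design the 3 subsets came from the same 4 mice of each age, so shared sample numbers were read as shared mice, which no label states outright. Deviations from group means correlated by a median of 0.15 (rTreg with aTreg), 0.09 (rTreg with kTreg) and 0.12 (aTreg with kTreg) within the 8 mice, against −0.03, −0.03 and −0.05 between mice.

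The text names the 9 members, up to 3 called genes with the smallest p per list and comparison, and the 5 genes most like each member, of which some are not reported here. Member and list choices were made with earlier results of these data known. Lists covered receptors, transcription factors, inflammasome and processing, mRNA decay and other T cell cytokines, and markers of other cell types. Gene starts and promoter windows came from GENCODE M39.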

Additional observations from a re-analysis of the deposited data

Results flagged for a closer look

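Within groups of 4 libraries, 5 of 51 sets of values of the cytokine transcripts held a library whose gap to the nearest other exceeded Dixon's 95% critical value on the log2(value + 1) scale, and chance flags about 1 in 20 groups. That rate does not apply to sets with 3 libraries at 0, where any value above 0 in the fourth is flagged, as for *Il17a* and for *Il1b* in old aTreg cells. *Il17a* in the old rTreg library of replicate 4 was 25.2, and the other 3 libraries were at 0. *Csf2* and *Il18* in the old rTreg library of replicate 3 were both at 0, where the other libraries of that group lay between 14.0 and 22.1 for *Csf2* and between 45.7 and 72.8 for *Il18*. The same library had the highest *Il6* and *Il4* of its group. *Il1b* in the young rTreg library of replicate 2 was 248, and the others lay between 2.05 and 5.27. *Il1b* in the old aTreg library of replicate 3 was 5.51, and the others were at 0.

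The change of *Il6* with age differed between aTreg and rTreg cells, with a difference of log2 fold changes of −5.84 (adjusted p = 0.0037, interaction in limma). The basophil and mast cell marker sums of old rTreg cells, given beside *Il6* above, moved with it, and their part was not tested.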

How the results depend on the processing

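No called direction reversed. Of the 23 calls on single transcripts, 9 held in every alternative run: *Tnf* (young kTreg against aTreg, old aTreg against rTreg), *Il4* (young aTreg against rTreg, old against young rTreg), *Il6* (old kTreg against aTreg, old aTreg against rTreg, old against young rTreg and kTreg) and *Il18* (young kTreg against rTreg). Calls over all genes also moved between settings, so the counts below are not read as results about the cytokines. In young kTreg against aTreg cells the main fit called 575 genes higher and 581 lower. An unadjusted p gave 1048 and 1634, and only the groups compared 410 and 215. In old kTreg against aTreg cells the main fit gave 222 and 144, and only the groups compared 821 and 440. The counts of transcripts called moved by over 1.5 times as follows, and the cause was not tested. For young kTreg against aTreg cells (3), a fit of only the groups compared gave 1, an unadjusted p 7 and both ages together 6. For old kTreg against aTreg cells (1), edgeR gave 2, only the groups compared 3, a pseudocount of 5, an unadjusted p and no fold threshold 2 each, and both ages together 6. For young kTreg against rTreg cells (3), only the groups compared and a pseudocount of 5 gave 1 each. For old kTreg against rTreg cells (3), edgeR and a pseudocount of 0.5 gave 0 and only the groups compared 1. For young aTreg against rTreg cells (3), DESeq2 gave 6, edgeR 1, only the groups compared, a pseudocount of 5 and both ages together 5 each, and an unadjusted p 7. For old aTreg against rTreg cells (4), edgeR gave 2. With age, rTreg cells (2) gave 4 by DESeq2 and by an unadjusted p, aTreg cells (0) gave 2 with only the groups compared and 1 with a pseudocount of 5 or an unadjusted p, and kTreg cells (3) gave 1 by edgeR and with only the groups compared and 6 by an unadjusted p. For the age difference of kTreg against aTreg cells (0), a pseudocount of 5 gave 1 and an unadjusted p 2, and for kTreg against rTreg cells (0), DESeq2 gave 2 and a pseudocount of 5 or an unadjusted p 1. For aTreg against rTreg cells (1), edgeR gave 0 and only the groups compared and an unadjusted p 2. The replicate block, which pairs the libraries of a mouse, gave 2 in this last comparison and changed no other call.

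Leaving out libraries, 1 at a time or those of young mouse 2 together, gave 2 to 4 calls in young and 1 to 2 in old kTreg against aTreg cells (2 without old rTreg replicate 4), 1 to 3 in young kTreg against rTreg cells (1 without young mouse 2), 0 to 3 in old kTreg against rTreg cells (below 3 in most of these fits, since *Il18* was called in 6 of 25), 1 to 5 in young aTreg against rTreg cells (1 without young mouse 2) and 3 to 4 in old ones. With age the counts were 2 to 4 in rTreg, 0 to 1 in aTreg and 2 to 4 in kTreg cells, and for the age differences 0 to 1 (kTreg against aTreg and against rTreg) and 1 to 2 (aTreg against rTreg). Transcripts with few reads, *Il17a*, *Il6* and *Il1b* in most groups, are limited by depth.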
